A study of Mus musculus with 12 samples.

Results

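The fatty acid desaturases of the mouse fall into the stearoyl-CoA desaturases (Scd) and the front-end fatty acid desaturases (Fads). All 8 genes of the table named Scd1 to Scd4, Fads1 to Fads3 or Fads6 were taken, out of 61210 genes listed. They were measured by total RNA-seq in 12 libraries of interscapular brown adipose tissue (iBAT), the depot between the shoulder blades that produces heat; the design text names the depot as inguinal. All libraries came from 20-week-old wild type C57BL/6N mice that were given chow up to 8 weeks of age. The NCD at RT group stayed on the control diet (NCD) at room temperature (RT), and the NCD in the cold group was on NCD and spent 24 h at 4 °C. The HFD at RT group was switched to high fat diet (HFD) at 8 weeks and kept on it for 12 weeks, and the HFD in the cold group received the same HFD and 24 h at 4 °C. Each group holds 3 libraries; the labels do not say that they come from separate mice, so p-values measure the spread between these samples. The values are the authors' estimated counts per gene, given below as CPM, counts scaled to a common library size after TMM scaling, or as a share of all counts of a library.

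Desaturases place a double bond into a fatty acyl chain with electrons that pass from NADH through cytochrome b5 reductase and cytochrome b5. Scd enzymes make monounsaturated fatty acids, mainly oleate and palmitoleate, from the saturated products of de novo lipogenesis, and their transcripts are known to respond to insulin, SREBP1c, LXR and dietary polyunsaturated fat. Fads1 and Fads2 convert the essential dietary fatty acids into long-chain polyunsaturated ones such as arachidonate, while Fads3 acts on sphingoid bases and the substrate of Fads6 is not well defined. In brown fat, fatty acids made or stored by the adipocyte are both fuel and activators of UCP1.

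On GRCm38 (GENCODE M21) the Scd genes lie side by side on chromosome 19. Scd3 occupies chr19:44203269-44244016, Scd2 chr19:44293674-44306864, Scd4 chr19:44333092-44346743 and Scd1 chr19:44394455-44407879, the last on the minus strand and the others on the plus strand. A separate cluster on the same chromosome holds Fads3 at chr19:10041569-10060110 (+), Fads2 at chr19:10062765-10101746 (-) and Fads1 at chr19:10182888-10196877 (+), whereas Fads6 lies at chr11:115279622-115297663 (-). Each value is for the whole gene. The Scd genes are close copies, which bears on how salmon could divide reads among them: the coding sequence of Scd1 was identical to that of Scd3 at 91.5%, to that of Scd2 at 90.3% and to that of Scd4 at 85.1% of the aligned bases. Of the 31-base words in the transcripts of a gene, 7.85% of those of Scd1, 6.17% of Scd2, 11% of Scd3 and 5.7% of Scd4 also occur in another Scd gene, compared with 0.729% for Fads2, 0.621% for Fads3 and none for Fads1 and Fads6 within their own family. Counts of the scarce Scd3 and Scd4 beside the abundant Scd1 are therefore uncertain, by an amount that was not measured. The stretch of coding sequence below, 60 bases long and starting at base 586 of Scd1, 595 of Scd2, 598 of Scd3 and 580 of Scd4 (counted from the first base of the start codon, longest coding transcript of each gene), is the same in every Scd gene. A read wholly within it cannot be assigned by its own sequence. Read length is not given, and a longer read or the other read of its pair can reach bases that differ.
Scd1 to Scd4: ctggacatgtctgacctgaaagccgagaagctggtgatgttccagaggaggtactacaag

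Where they are least alike, 29 of 60 bases were the same in all 4 genes. This stretch begins at coding base 295 of Scd1, 304 of Scd2, 307 of Scd3 and 289 of Scd4. Capitals mark bases that differ from Scd1, of which there are 10 in Scd2, 18 in Scd3 and 17 in Scd4.
Scd1: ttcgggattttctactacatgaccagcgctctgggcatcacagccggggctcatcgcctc
Scd2: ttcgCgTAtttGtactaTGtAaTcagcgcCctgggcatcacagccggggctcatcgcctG
Scd3: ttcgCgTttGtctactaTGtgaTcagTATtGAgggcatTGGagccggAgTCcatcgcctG
Scd4: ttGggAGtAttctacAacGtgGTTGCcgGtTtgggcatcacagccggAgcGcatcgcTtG

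Promoter sequences of RefSeq (GRCm38.p6, 300 bases around the start used there) were found for Scd3, Scd4, Fads2, Fads3 and Fads6, and not for Scd1, Scd2 and Fads1. By the GENCODE gene starts given above, the windows of Scd3 and Fads3 lie mostly before the start. Those of Fads2 and Scd4 lie mostly inside the gene, and that of Fads6 lies on both sides of its start. Those of Fads2, Fads3 and Scd3 are shown because these genes gave different patterns across the groups: Fads2 was lower on HFD at RT, Fads3 was lower in the cold on NCD, and Scd3 was higher in the cold on HFD. Both strands were searched for the sterol response element TCACNCCAC, the NF-Y motif CCAAT, the GC box GGGCGG and the E-box CACGTG; no match overlaps another in the windows shown. Capitals mark the matches. Of 32851 mouse promoters of this length, 1.24% hold the sterol response element, 37.4% the NF-Y motif, 35.7% the GC box and 7.15% the E-box. The Fads3 window, at chr19:10041298-10041597 (+), holds 2 NF-Y motifs and 2 GC boxes, and the Fads2 window, at chr19:10101454-10101753 (-), holds 1 GC box. No listed motif was found in the window of Scd3, at chr19:44203038-44203337 (+), or of Scd4, and 1 GC box in that of Fads6.
Fads3: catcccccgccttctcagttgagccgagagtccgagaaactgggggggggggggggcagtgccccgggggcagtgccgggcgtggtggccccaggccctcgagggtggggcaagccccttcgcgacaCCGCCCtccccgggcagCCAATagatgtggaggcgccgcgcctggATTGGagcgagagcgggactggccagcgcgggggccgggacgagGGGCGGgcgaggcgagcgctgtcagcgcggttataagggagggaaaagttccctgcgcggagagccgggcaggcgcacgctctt
Fads2: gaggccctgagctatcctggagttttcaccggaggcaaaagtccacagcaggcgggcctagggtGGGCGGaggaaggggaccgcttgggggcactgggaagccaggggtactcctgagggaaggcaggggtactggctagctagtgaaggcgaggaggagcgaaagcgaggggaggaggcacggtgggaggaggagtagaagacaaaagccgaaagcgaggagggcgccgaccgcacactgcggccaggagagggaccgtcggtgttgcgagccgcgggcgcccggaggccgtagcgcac
Scd3: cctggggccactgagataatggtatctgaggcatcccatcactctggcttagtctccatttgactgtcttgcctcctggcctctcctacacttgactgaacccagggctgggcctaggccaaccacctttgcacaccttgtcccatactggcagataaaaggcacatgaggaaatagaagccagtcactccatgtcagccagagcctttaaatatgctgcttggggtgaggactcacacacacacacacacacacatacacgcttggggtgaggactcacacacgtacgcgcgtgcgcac

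Libraries held 15136861 to 46740702 counts, the deepest being replicate 3 of each group, which the labels place in batch 2 (batch 1 holds replicates 1 and 2). The summed level of 8 brown adipocyte markers, Ucp1 among them, was 6410 to 7982 CPM for NCD at RT, 20134 to 23410 for NCD in the cold, 8502 to 10911 for HFD at RT and 15789 to 19365 for HFD in the cold, and none of the 8 was at 0. In every group 1 library stood apart by RNA of skeletal muscle: 11 markers summed to 18626 CPM in NCD at RT replicate 2, 10202 in NCD in the cold replicate 2, 20301 in HFD at RT replicate 3 and 5903 in HFD in the cold replicate 3, against 655 to 3902 in the other 8 libraries. Each of these 4 is also the library with the lowest Scd1 of its group. Markers of keratinocytes and sebocytes, cells known for Scd3, summed to between 8.42 and 17.02 CPM in all 12 libraries. Krt5 was at 0 counts in each group, Krt14 in each group but HFD in the cold, and Krt1 in HFD at RT. Of these 6 markers, 3 had enough counts to be tested. Whether such cells add to the Scd3 counts was not tested. For cold on NCD, 4 of the 8 brown adipocyte markers and 2 of 6 general adipocyte markers were called higher, and for cold on HFD 3 of the 8 brown adipocyte markers. Among all tested genes 3.87% were called higher for cold on NCD and 5.4% for cold on HFD. In every other comparison and in the lists for white adipocytes, muscle, macrophages, endothelium, Schwann cells, keratinocytes and sebocytes, hepatocytes and erythroid cells, at most 1 gene was called in either direction. The median log2 fold change of the muscle list was -0.99 for cold on NCD and -1.78 for cold on HFD, with none of its 11 genes called. In whole tissue, fewer cells of a type and less RNA per cell cannot be told apart.

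Scd1, the main Scd of adipose tissue and liver, was the gene with the most counts of the whole table in 7 of the 12 libraries. It took 11.7%, 10.2% and 10.8% of all counts in the NCD at RT libraries (replicates 1 to 3). In the cold on NCD this share was 7.53%, 4.90% and 5.38%. With HFD at RT it was 5.20%, 3.30% and 2.69%, and with HFD in the cold 1.97%, 2.24% and 1.93%. The Wilson 95% interval of the first of these shares, which covers counting error only, was 11.66% to 11.69%, far narrower than the spread between libraries. As CPM, Scd1 was at 118190 ± 10831 (SD, n = 3) for NCD at RT, 64973 ± 16910 for NCD in the cold, 35709 ± 13163 for HFD at RT and 18237 ± 2171 for HFD in the cold. The groups followed each other in this order with no overlap between neighbours, although HFD at RT replicate 1 (50657 CPM) came close to NCD in the cold replicate 2 (51515 CPM). Scd1 stayed among the 3 genes with the most counts in every library.

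**Figure D1:**
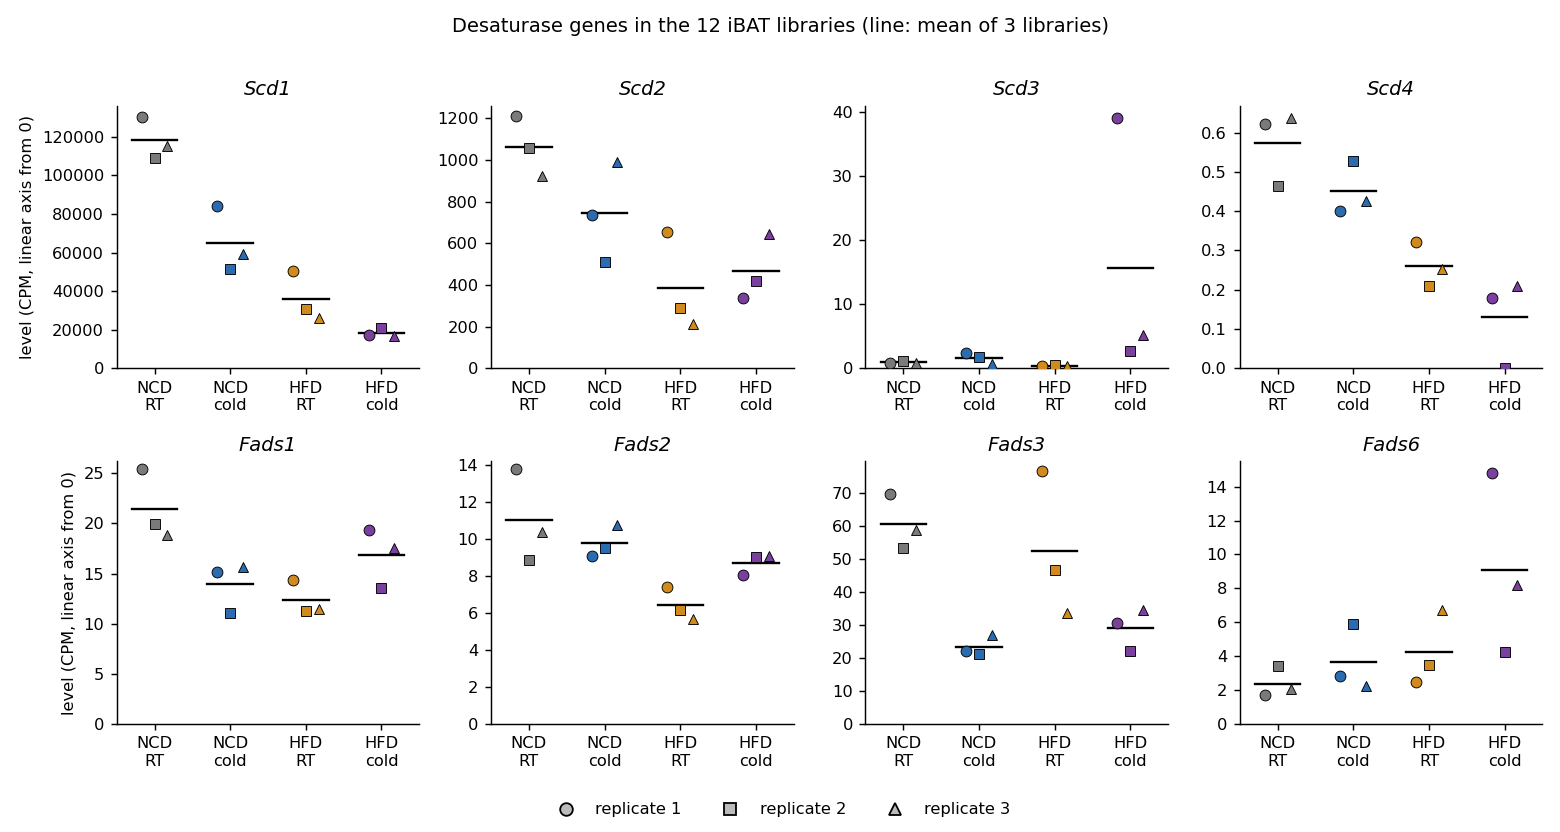
Level of each desaturase gene in CPM (vertical axis, linear and starting at 0, scaled for each gene) in the 3 libraries of each of the 4 groups (circle, square and triangle for replicates 1, 2 and 3; line, group mean). Scd1 means run from 118190 CPM for NCD at RT to 18237 CPM for HFD in the cold, Fads3 means are 60.5 and 52.3 CPM in the RT groups and 23.3 and 29.0 CPM in the cold groups, and the mean of Scd3 for HFD in the cold is set by 1 library at 38.9 CPM.

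Scd2, known from brain and from skin and liver of newborn mice, was the next gene by level. It was at 1209, 1056 and 924 CPM for NCD at RT and at 737, 510 and 991 CPM for NCD in the cold. With HFD it was at 653, 291 and 213 CPM at RT and at 336, 419 and 646 CPM in the cold. The 3 NCD at RT libraries lay above all 6 HFD libraries, and the other groups overlapped each other or NCD at RT.

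Scd3, an isoform known from sebaceous and Harderian glands that prefers palmitoyl-CoA, was close to the detection limit in 3 groups. Its counts were 14, 20 and 37 for NCD at RT, 41, 30 and 26 for NCD in the cold and 6, 9 and 11 for HFD at RT. In the HFD in the cold libraries it had 866, 62 and 226 counts, that is 38.9, 2.73 and 5.26 CPM against 0.386, 0.470 and 0.310 CPM for HFD at RT. All 3 libraries were above those of every other group, and they differed 14.3-fold among themselves. Relative to Scd1 counts, Scd3 counts were 0.226%, 0.0132% and 0.0314% in these libraries and 0.000668% to 0.00342% in the other 9. The span of the antisense gene AC125101.1 overlaps that of Scd3. Whether their exons share sequence was not examined, and the use of strand is not stated. AC125101.1 held 0 to 11 counts in every library and 0, 1 and 4 in the 3 HFD in the cold libraries.

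Scd4, first described in heart, had 10, 8 and 26 counts for NCD at RT, 7, 9 and 18 for NCD in the cold, 5, 4 and 9 for HFD at RT and 4, 0 and 9 for HFD in the cold. It was the member that did not pass the filter on low counts, so it was not tested. The 0 in HFD in the cold replicate 2 allows up to 3 counts.

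Fads3 was the most abundant Fads gene. It was at 69.5, 53.2 and 58.8 CPM for NCD at RT and at 22.04, 21.1 and 26.8 CPM for NCD in the cold, with no overlap. On HFD it was at 76.7, 46.7 and 33.4 CPM at RT and at 30.4, 22.1 and 34.5 CPM in the cold, where HFD at RT replicate 3 lay below the highest cold library. The order was NCD at RT, HFD at RT, HFD in the cold and NCD in the cold, and neighbours in it overlapped throughout.

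Fads1, which makes arachidonate in its last desaturation step, was at 25.5, 20.0 and 18.9 CPM for NCD at RT and at 15.1, 11.0 and 15.6 CPM for NCD in the cold. With HFD at RT it was at 14.3, 11.2 and 11.5 CPM, and with HFD in the cold at 19.4, 13.5 and 17.5 CPM. The NCD at RT libraries lay above those of NCD in the cold and of HFD at RT, and overlapped with those of HFD in the cold. Fads2, the enzyme of the first step from linoleate and alpha-linolenate, was at 13.8, 8.88 and 10.4 CPM for NCD at RT and at 9.10, 9.52 and 10.7 CPM for NCD in the cold. Its HFD values were 7.40, 6.16 and 5.70 CPM at RT and 8.05, 9.01 and 9.08 CPM in the cold, so HFD at RT was below all other groups without overlap.

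Fads6 was at 1.68, 3.42 and 2.03 CPM for NCD at RT and at 2.81, 5.88 and 2.25 CPM for NCD in the cold. It was at 2.44, 3.497 and 6.71 CPM for HFD at RT and at 14.8, 4.27 and 8.17 CPM for HFD in the cold. Neighbouring groups overlapped throughout. Its highest value, like that of Scd3, was in HFD in the cold replicate 1. That library had the least muscle marker RNA of all (655 CPM). In each of the other groups, Fads6 was highest in the library richest in muscle RNA. These were NCD at RT replicate 2 (3.42 CPM), NCD in the cold replicate 2 (5.88) and HFD at RT replicate 3 (6.71). Whether Fads6 follows muscle RNA was not tested.

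Levels of different genes were compared after division by exonic length. For NCD at RT, Scd1 was at 24160 ± 2214 CPM per kb (SD, n = 3) and Scd2 at 195 ± 26.2. Fads3 followed at 15.9 ± 2.18, Fads1 at 4.46 ± 0.734 and Fads2 at 3.34 ± 0.764 CPM per kb. Fads6 (0.357 ± 0.139), Scd3 (0.275 ± 0.0447) and Scd4 (0.152 ± 0.0252) were the lowest, and their libraries overlapped between Fads6 and Scd3. With HFD in the cold the same scale gave 3728 ± 444 for Scd1, 85.4 ± 29.4 for Scd2, 7.65 ± 1.66 for Fads3 and 4.403 ± 5.69 for Scd3.

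All 8 genes together held 11.0% ± 0.768 of all counts for NCD at RT (SD, n = 3), 6.01% ± 1.40 for NCD in the cold, 3.78% ± 1.34 for HFD at RT and 2.11% ± 0.157 for HFD in the cold. Scd1 made up 98.3% to 99.1% of this sum in the 9 libraries of the first 3 groups and 95.9% to 97.8% with HFD in the cold. The 4 Fads genes together held 0.00878% ± 0.00101 for NCD at RT, 0.00465% ± 0.000326 for NCD in the cold, 0.00787% ± 0.00225 for HFD at RT and 0.00720% ± 0.00166 for HFD in the cold. Among Fads counts, Fads3 made up 62.2% to 65.3% for NCD at RT and 58.3% to 76.0% for HFD at RT, against 44.4% to 48.4% and 41.8% to 49.8% in the cold groups of the respective diets. Fads2 accounted for 10.4% to 12.49% for NCD at RT and for 18.6% to 20.0% for NCD in the cold, and Fads6 for up to 20.4% in HFD in the cold replicate 1.

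**Figure D2:**
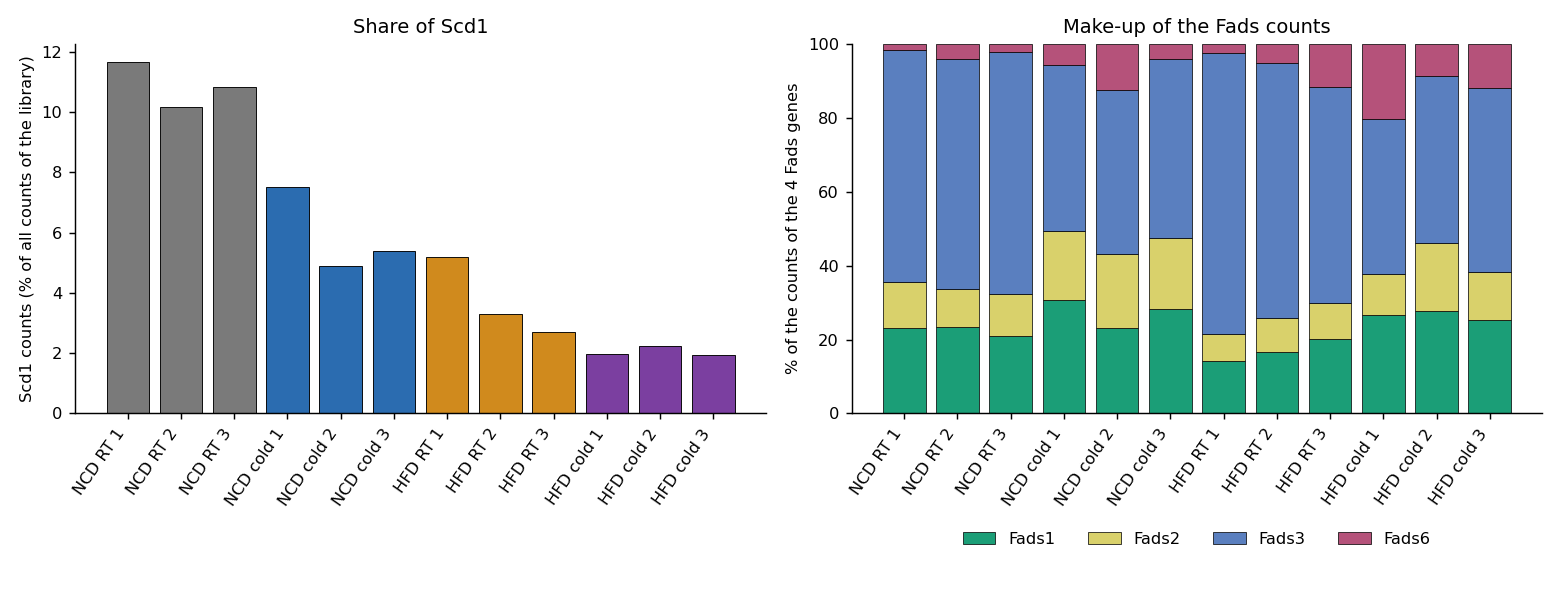
Left, Scd1 counts as a percentage of all counts of each library (linear axis from 0; bar colour, group); right, the percentage of Fads1, Fads2, Fads3 and Fads6 counts in the sum of these 4 genes for each library. The share of Scd1 was 10.2% to 11.7% for NCD at RT and 1.93% to 2.24% for HFD in the cold, and Fads3 gave more than 58% of the Fads counts in each RT library and less than 50% in each cold library.

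The first comparison asks how cold acts on the desaturases of mice on the control diet. Fads3 was the member that fell, by 1.37 ± 0.27 on the log2 scale (SE, 2.59-fold lower, adjusted p = 0.0123 in the quasi-likelihood F test of edgeR, with Benjamini-Hochberg correction over 16737 genes). Of the 7 members tested it was the 1 called, a call being an adjusted p below 0.05 together with a log2 fold change beyond 0.5 in either direction. Of all tested genes 6.39% were called, 3.87% higher and 2.53% lower. Scd1 had a log2 fold change of -0.86 ± 0.25 and an adjusted p of 0.0556, and Fads1 one of -0.62 ± 0.19 with 0.0636. When the replicate number was added as a block inside each diet, edgeR called both, Scd1 at -0.89 (adjusted p = 0.0274) and Fads1 at -0.62 (adjusted p = 0.0250), next to Fads3 at -1.37 (adjusted p = 0.0173). Scd1 also passed without NCD in the cold replicate 1 (-1.08, adjusted p = 0.0404), without HFD at RT replicate 1 (0.0203) and without HFD at RT replicate 3 (0.0408). Over all 25 alternatives Scd1 was called in 10, with an adjusted p of 0.00579 to 0.240, and Fads1 in 4, with 0.0158 to 0.276. Scd2 (log2 fold change -0.51 ± 0.41), Scd3 (0.64 ± 0.96), Fads2 (-0.17 ± 0.18) and Fads6 (0.60 ± 0.55) had adjusted p-values of 0.544 or more. The libraries of the groups did not overlap for 3 of the 7, Scd1, Fads1 and Fads3, which was so for 27.8% of all tested genes.

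The fall of Fads3 was -1.51 in batch 1 alone (adjusted p = 0.0365 in edgeR) and -1.39 without the 4 libraries high in muscle RNA (adjusted p = 0.0366). It missed the threshold without NCD at RT replicate 1 (-1.26, adjusted p = 0.0527), without NCD in the cold replicate 1 (-1.32, 0.0509) and without NCD in the cold replicate 2 (-1.30, 0.0586), and also with no filter on low counts (-1.36, 0.0554). Its adjusted p over all alternatives ran from 2.03e-05 to 0.0586.

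The same question on HFD gave a fall of Scd1 and a rise of Scd3. Scd1 decreased by 0.97 ± 0.25 on the log2 scale (1.96-fold lower, adjusted p = 0.0270 in edgeR's quasi-likelihood test). Scd3 rose by 5.34 ± 1.08 (adjusted p = 0.0134), the 1 member called higher in any comparison. These are 2 of 7 members, against 9.59% of all tested genes, with 4.19% called lower and 5.4% higher. Fads3 had a log2 fold change of -0.85 ± 0.27 (adjusted p = 0.0647), Fads1 of 0.45 ± 0.19 (0.142), Fads2 of 0.45 ± 0.18 (0.126), Fads6 of 1.09 ± 0.53 (0.215) and Scd2 of 0.28 ± 0.41 (0.703). Scd1, Scd3 and Fads2 showed no overlap between the groups, as did 30.3% of all tested genes.

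The size of the Scd3 rise rests on HFD in the cold replicate 1. Without this library the log2 fold change was 3.41 ± 0.53 (adjusted p = 0.00437 in edgeR). Leaving out any 1 of the HFD at RT libraries raised the adjusted p to between 0.0522 and 0.0629 at log2 fold changes of 5.16 to 5.50; these libraries hold 6 to 11 counts each. In batch 1 alone the value was 5.57 (adjusted p = 0.121), without the 4 libraries high in muscle RNA it was 5.58 (0.125), and over all alternatives the adjusted p was 4.49e-07 to 0.125. The fall of Scd1 was -0.60 without HFD at RT replicate 1 (adjusted p = 0.0990), -0.91 without HFD in the cold replicate 1 (0.0979) and -0.91 without HFD in the cold replicate 3 (0.101). It was -1.10 in batch 1 alone (adjusted p = 0.113) and -1.10 without the 4 libraries high in muscle RNA (0.0797), with a range of 0.00140 to 0.113 over all alternatives. In the 6 libraries of the comparison alone neither passed, with adjusted p-values of 0.0787 for Scd1 and 0.0948 for Scd3 in edgeR, and with no filter on low counts Scd1 did not (0.0731). Fads3 passed in 3 of 25 alternatives: without HFD at RT replicate 3, at -1.09 (adjusted p = 0.0188), without the 4 libraries high in muscle RNA, at -1.23 (0.0360), and in DESeq2, at -0.83 (0.0189). It was at -0.43 without HFD at RT replicate 1, and its adjusted p ran from 0.0188 to 0.244 over all alternatives.

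For HFD against NCD at RT, Scd1, Fads1 and Fads2 fell. Scd1 decreased by 1.73 ± 0.25 on the log2 scale (3.31-fold lower, adjusted p = 0.00542 in edgeR's quasi-likelihood test). Fads1 decreased by 0.80 ± 0.19 (1.74-fold, adjusted p = 0.0464) and Fads2 by 0.78 ± 0.18 (1.72-fold, adjusted p = 0.0424). These 3 of 7 compare with 2.44% of all tested genes called, 1.26% lower and 1.18% higher. Scd2 was 2.76-fold lower with a log2 fold change of -1.46 ± 0.42 and did not pass (adjusted p = 0.106), although no NCD library overlapped an HFD library; it passed without HFD at RT replicate 1 (-2.11, adjusted p = 0.0156) and in DESeq2 (-1.49, 0.0301), and its range over all alternatives was 0.0156 to 0.313. Scd3 had a log2 fold change of -1.34 ± 1.08 (adjusted p = 0.564), Fads3 of -0.21 ± 0.26 (0.734) and Fads6 of 0.85 ± 0.55 (0.449). The groups did not overlap for 5 of the 7 members, Scd1, Scd2, Scd3, Fads1 and Fads2, against 25.9% of all tested genes.

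The calls of Fads1 and Fads2 lay close to the threshold. Fads1 was called in 13 of 24 alternatives (log2 fold change -0.95 to -0.61, adjusted p 0.00278 to 0.192) and Fads2 in 11 of 24 (-0.94 to -0.59, 0.00285 to 0.223). Leaving out 1 library ended the call of Fads1 for 7 of the 12 libraries: NCD at RT replicates 1, 2 and 3, NCD in the cold replicate 1, HFD at RT replicates 2 and 3, and HFD in the cold replicate 3 (adjusted p 0.0551 to 0.160). For Fads2 it did so for 8 of the 12: NCD at RT replicates 1 and 3, NCD in the cold replicate 2, HFD at RT replicates 2 and 3, and HFD in the cold replicates 1, 2 and 3 (0.0506 to 0.143). Scd1 was called in 22 of 24 alternatives and missed it in batch 1 alone (-1.56, adjusted p = 0.0999) and without the 4 libraries high in muscle RNA (-1.60, 0.0668). Without these 4, Fads1 was at -0.79 (adjusted p = 0.189) and Fads2 at -0.83 (0.146).

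**Figure D3:**
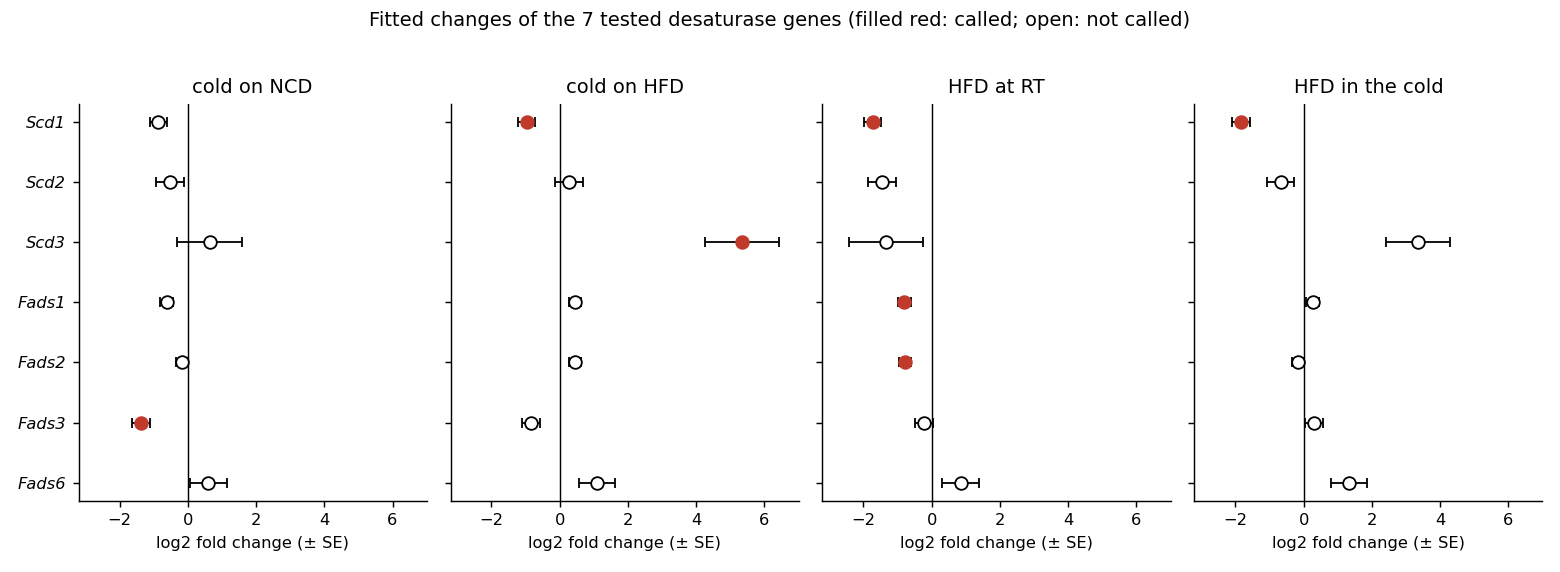
Fitted log2 fold changes with SE (horizontal axis) of the 7 tested desaturase genes in the 4 comparisons (cold within each diet, HFD at each temperature), from the edgeR fit to 12 libraries. Filled symbols mark the 7 calls: Fads3 for cold on NCD, Scd1 and Scd3 for cold on HFD, Scd1, Fads1 and Fads2 for HFD at RT, and Scd1 for HFD in the cold.

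In the cold, HFD against NCD lowered Scd1 by 1.83 ± 0.26 on the log2 scale (3.56-fold lower, adjusted p = 0.00235 in edgeR's quasi-likelihood test). It was the 1 of 7 members called, against 4.98% of all tested genes, 2.81% lower and 2.17% higher. The call held in 23 of 24 alternatives and was missed in batch 1 alone, where the value was -1.84 (adjusted p = 0.0682); without the 4 libraries high in muscle RNA it was -1.92 (adjusted p = 0.0197). Scd3 had a log2 fold change of 3.36 ± 0.94 (adjusted p = 0.0715), which was 1.41 without HFD in the cold replicate 1 (0.172) and 3.85 without HFD in the cold replicate 2 (0.0221), within a range of 0.00465 to 0.298 over all 24 alternatives, of which 4 called it. Fads6 was at 1.33 ± 0.54 (adjusted p = 0.171), Scd2 at -0.68 ± 0.41 (0.376), Fads1 at 0.27 ± 0.18 (0.432), Fads2 at -0.17 ± 0.18 (0.642) and Fads3 at 0.31 ± 0.27 (0.553). Scd1, Scd3 and Fads2 had no overlap between the groups, as did 25.2% of all tested genes. For Fads2 the groups nearly touched, with HFD in the cold replicate 3 at 9.08 CPM and NCD in the cold replicate 1 at 9.10 CPM. The 4 comparisons share groups, so their values for a member are not independent of each other.

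Whether cold acts differently on the diets was tested as the interaction of diet and temperature. In the quasi-likelihood test of edgeR no member had an adjusted p below 0.05, against 0.00597% (1 gene) of all tested genes, and 3 of 7 had an unadjusted p under 0.05, against 6.38% of all tested genes. For Fads1 the interaction was 1.07 ± 0.26 on the log2 scale (unadjusted p = 0.00151, adjusted p = 0.494), with a lower level in the cold on NCD and a higher one on HFD; DESeq2 gave 1.09 with an adjusted p of 0.0496, the lowest of a range up to 1.00 over 23 alternatives. Scd3 was at 4.70 ± 1.42 (unadjusted p = 0.00835, adjusted p = 0.616) and Fads2 at 0.61 ± 0.25 (0.0299, 0.746). The interaction was -0.11 ± 0.35 for Scd1 (adjusted p = 0.978), 0.79 ± 0.58 for Scd2 (0.863), 0.53 ± 0.38 for Fads3 (0.854) and 0.48 ± 0.76 for Fads6 (0.949). In the test of any difference among the 4 groups, Scd1 passed the adjusted p of 0.001 (0.00017 in edgeR), as did 2.9% of all tested genes. Scd1 missed this threshold in batch 1 alone (0.0130), without the 4 libraries high in muscle RNA (0.00508), without NCD at RT replicate 1 (0.001002) and without HFD in the cold replicate 3 (0.00103). The adjusted p was 0.00867 for Fads3, 0.00868 for Scd3, 0.0275 for Fads1, 0.0300 for Fads2, 0.0675 for Scd2 and 0.0735 for Fads6.

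Ratios within a family do not depend on library size. There were 103 to 125 Scd1 counts for each Scd2 count for NCD at RT, 59.96 to 114 for NCD in the cold, 77.6 to 121 for HFD at RT and 26.0 to 51.2 for HFD in the cold, the last below all other libraries. The cold difference of the ratio was -0.82 on the log2 scale across both diets (exact permutation test within diet, two-sided, p = 0.02, adjusted p = 0.06 over 4 tests), with -0.34 on NCD and -1.30 on HFD. HFD against NCD gave -0.65 (exact permutation test within temperature, p = 0.03, adjusted p = 0.06), with -0.16 at RT and -1.13 in the cold. Neither passed after adjustment; the smallest p this test can give is 0.005. With the libraries permuted within replicate number as a block, the exact p was 0.0938 for cold and 0.0625 for HFD. In batch 1 alone the differences were -0.41 (exact permutation p = 0.222) and -0.66 (0.111), where the smallest p possible is 0.0556.

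The Fads1 to Fads2 ratio was 1.82 to 2.25 for NCD at RT and 1.16 to 1.66 for NCD in the cold, without overlap. It was 1.82 to 2.01 for HFD at RT and 1.502 to 2.41 for HFD in the cold. Across diets the cold difference was -0.24 on the log2 scale (exact permutation test, two-sided, p = 0.13, adjusted p = 0.173), made up of -0.48 on NCD and -0.01 on HFD. The difference of HFD from NCD was 0.20 (exact permutation test, p = 0.22, adjusted p = 0.22). In batch 1 alone these were -0.27 (exact permutation p = 0.333) and 0.17 (0.611).

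**Figure D4:**
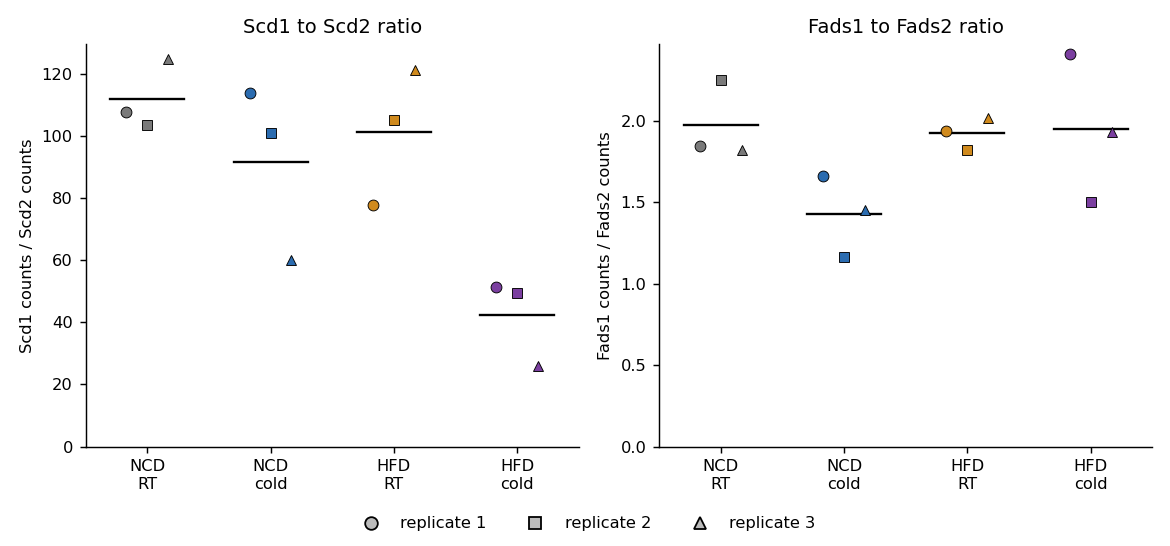
Ratio of Scd1 to Scd2 counts (left) and of Fads1 to Fads2 counts (right) in each library by group, on linear axes from 0, with lines for the group means. The Scd1 to Scd2 ratio was 26.0 to 51.2 for HFD in the cold and 59.96 or more in the other 9 libraries, and the Fads1 to Fads2 ratio was lowest for NCD in the cold at 1.16 to 1.66.

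Genes that feed, use or control the desaturases were taken as lists and are given as counts of tested genes called. Each list's median log2 fold change is added, and the median of all tested genes in a comparison is printed with the first list. Called higher and lower among all tested genes were 3.87% and 2.53% for cold on NCD and 5.4% and 4.19% for cold on HFD. These shares were 1.18% and 1.26% for HFD at RT and 2.17% and 2.81% for HFD in the cold. The enzymes that make the saturated substrates of Scd1, from citrate export to Fasn, had 2 of 10 lower for cold on NCD (median -0.35, all genes -0.01) and 8 of 10 lower for cold on HFD (-1.64, all genes -0.04). For HFD they had 5 of 10 lower at RT (-1.05, all genes 0.03) and 9 of 10 lower in the cold (-2.03, all genes 0.02), and none was called higher. The citrate carrier Slc25a1 fell in all 4 comparisons, with 1115 ± 118 CPM for NCD at RT (SD, n = 3), 501 ± 138 for NCD in the cold, 487 ± 102 for HFD at RT and 128 ± 21.5 for HFD in the cold. In the cold on HFD, ATP citrate lyase Acly was at -3.496 ± 0.36, Fasn at -2.88 ± 0.30 and acetyl-CoA carboxylase Acaca at -2.76 ± 0.26 on the log2 scale, with adjusted p-values of 0.000293, 0.000260 and 0.000120 in edgeR, beside -0.97 for Scd1. With HFD in the cold against NCD in the cold, Acly was at -4.32 ± 0.37, Fasn at -3.44 ± 0.31 and Acaca at -3.17 ± 0.26, and the malic enzyme Me1 at -2.09 ± 0.19, beside -1.83 for Scd1. At RT, HFD lowered Me1 by 1.48 ± 0.19, the acetyl-CoA synthetase Acss2 by 1.40 ± 0.25 and Acacb by 0.80 ± 0.17.

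Among the electron donors, the NADH reductase Cyb5r3 fell on HFD by 1.02 ± 0.13 at RT and by 0.73 ± 0.13 in the cold, and cytochrome b5 of the outer mitochondrial membrane, Cyb5b, by 0.86 ± 0.19 and 0.75 ± 0.19 on the log2 scale. These were the 2 of 6 called in either HFD comparison, with list medians of -0.07 and -0.01. For cold on HFD, Cyb5r1 rose by 1.10 ± 0.27 (median of the list 0.17), and for cold on NCD none of the 6 was called (median 0.08). The microsomal Cyb5a, named here for its known role and not by the rule, had log2 fold changes of -0.14 to 0.05 in the 4 comparisons (adjusted p of 0.715 or more in edgeR).

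The elongases extend the chains that desaturases act on. Elovl5, of the polyunsaturated pathway, fell on HFD by 1.33 ± 0.20 at RT and by 0.93 ± 0.20 in the cold, Elovl6, which turns palmitate into stearate, by 1.17 ± 0.24 and 1.52 ± 0.24, and the reductase Tecr by 0.96 ± 0.21 and 1.11 ± 0.21. These were the 3 of 11 called lower, with none higher (medians -0.37 and -0.30). In the cold, 4 of 11 rose on each diet and none fell (medians 0.16 on NCD and 0.53 on HFD): Elovl3, the elongase induced in active brown fat, by 2.69 ± 0.25 on NCD and 2.76 ± 0.25 on HFD, Hacd2 by 1.90 ± 0.17 and 1.73 ± 0.17, Hsd17b12 by 0.70 ± 0.14 and 0.71 ± 0.14, and Elovl4 by 1.63 ± 0.34 and 1.33 ± 0.33.

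Lower calls made up 4.19% of all tested genes for cold on HFD, 1.26% for HFD at RT and 2.81% for HFD in the cold. Of 21 regulators of desaturase genes, none was called for cold on NCD (median 0.15), 1 lower for cold on HFD (0.01), 1 lower for HFD at RT (-0.01), and 2 lower and 1 higher for HFD in the cold (-0.17). The called genes were Insig1, the sterol-responsive retention protein of SREBP and itself an SREBP target, which fell on HFD by 1.31 ± 0.19 at RT and 1.51 ± 0.19 in the cold, the carbohydrate response factor Mlxipl (ChREBP), which fell by 0.85 ± 0.15 for cold on HFD and by 1.00 ± 0.15 for HFD in the cold, and Erlin1, which rose by 0.74 ± 0.17 for HFD in the cold. Srebf1, which encodes SREBP1c and is named for that role and not by the rule, had log2 fold changes of -0.70 ± 0.38 for cold on NCD, 0.05 ± 0.38 for cold on HFD, -0.88 ± 0.38 for HFD at RT and -0.12 ± 0.38 for HFD in the cold, with adjusted p-values of 0.265 or more in edgeR.

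Acyl-CoA synthetases, which activate the chains, had 4 of 8 higher for cold on NCD (median 0.55), 4 higher and 1 lower for cold on HFD (0.61), 3 lower for HFD at RT (-0.32) and 2 lower for HFD in the cold (-0.17). Acsl5 rose in the cold by 1.37 ± 0.18 on NCD and 0.87 ± 0.17 on HFD and fell on HFD by 1.09 ± 0.17 at RT and 1.59 ± 0.18 in the cold, and the transporter Slc27a2 rose in the cold by 1.74 ± 0.23 and 1.79 ± 0.23. Of 13 acyltransferases that use the products, 4 were higher in the cold on each diet (medians 0.05 and 0.28), 1 was lower for HFD at RT (0.00) and 1 higher for HFD in the cold (0.16); Gpam, the first step of glycerolipid synthesis, rose in the cold by 1.48 ± 0.17 on NCD and 0.75 ± 0.17 on HFD, and Lpcat3, which places polyunsaturated chains into phospholipids, rose by 0.71 ± 0.13 for cold on HFD and fell by 0.72 ± 0.13 for HFD at RT. Of 7 genes of the peroxisomal step that completes omega-3 synthesis, 1 rose and 1 fell for cold on NCD (median 0.34), 2 rose and 1 fell for cold on HFD (-0.14), none was called for HFD at RT (-0.09) and 1 fell for HFD in the cold (-0.19); the transporter Abcd2 fell in the cold by 1.23 ± 0.24 on NCD and 1.94 ± 0.24 on HFD. Of 4 other lipid desaturases, described for the cold comparisons alone, none was called on NCD (0.36) and 1, Tmem189, rose on HFD, by 0.90 ± 0.17 (0.39). Where a list had no gene called in edgeR, an unadjusted p under 0.05 was found for cold on NCD in 3 of 6 electron donors, 6 of 21 regulators and 2 of 4 other lipid desaturases, and for HFD at RT in 2 of 7 peroxisomal genes. Over all tested genes this was so for 21.7% and 18%.

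**Figure D5:**
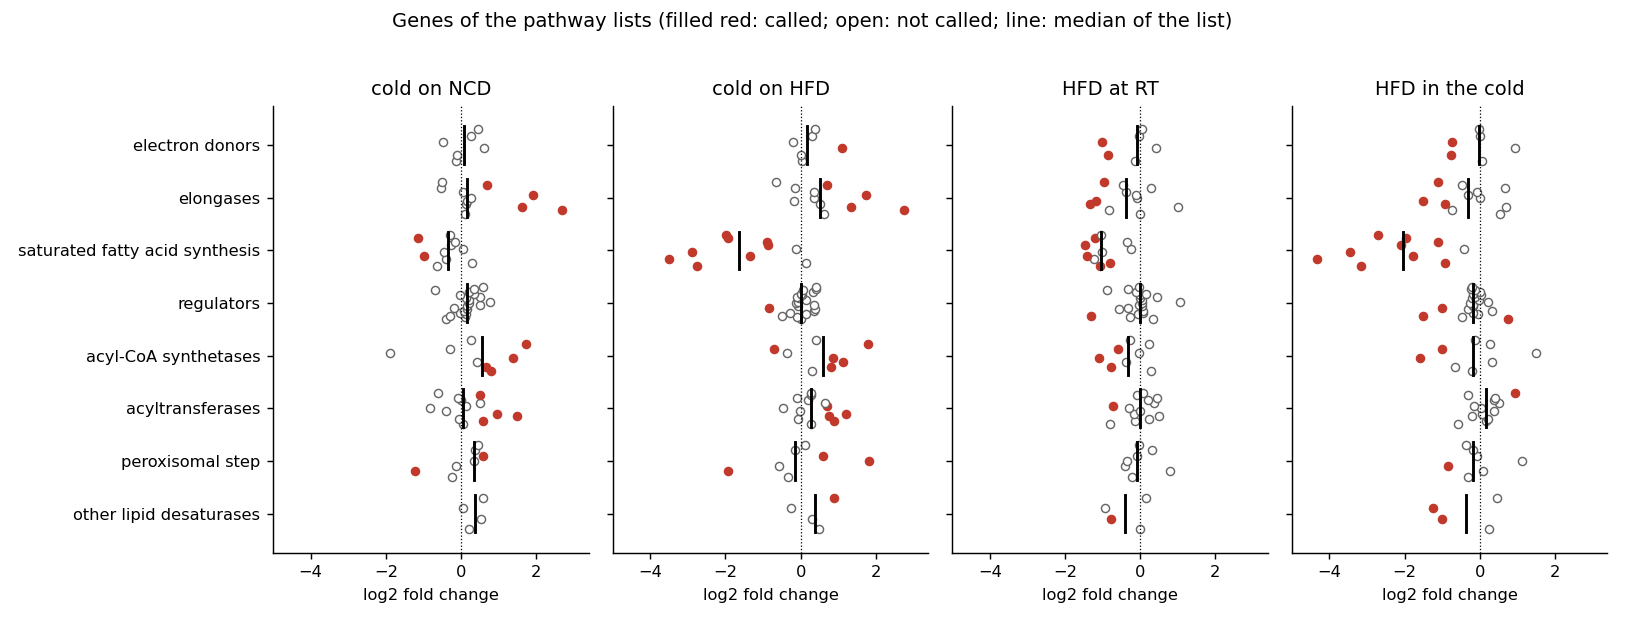
Log2 fold change (horizontal axis) of each tested gene of the 8 pathway lists (rows) in the 4 comparisons; filled symbols are called genes and short lines the list medians. Saturated fatty acid synthesis lies left of 0 with medians of -1.64 for cold on HFD and -2.03 for HFD in the cold, while called elongases lie right of 0 for cold and left of 0 for HFD.

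Among the genes most like Scd1 in log2 CPM over the 12 libraries were Gm35853 (Pearson's r = 0.990), Prune2 (0.989), Smoc1 (0.974) and Me1 (0.969), the malic enzyme that supplies NADPH. For Fads3 they were Cd247 (r = 0.952), St3gal4 (0.9495), Esyt1 (0.937), Akap5 (0.933) and Cyp2j9 (0.928). The points share the 4 groups and the scaling of each library, so the correlations describe likeness of pattern over 16737 genes and no more. Among the members, Scd1 had r = 0.769 with Scd2, 0.566 with Fads2, 0.431 with Fads3, 0.429 with Fads1, -0.454 with Scd3 and -0.807 with Fads6 over the same libraries.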

How the data were processed

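Total RNA of iBAT was sequenced after rRNA depletion (TruSeq, paired-end), and per the labels and methods the authors trimmed reads with cutadapt and deposited estimated counts per gene made with salmon on GENCODE M22 and RNAcentral (GRCm38); these are whole numbers. The use of strand is not given in the sources used here. Counts were tested with edgeR 4.0.16 in R 4.3.3: genes kept by filterByExpr (minimum count 10), TMM scaling, robust quasi-likelihood fit of the 4 group means over 12 libraries, contrasts and Benjamini-Hochberg adjustment over the 16737 genes kept. A gene was called with adjusted p below 0.05 and a log2 fold change beyond 0.5 in either direction (interaction, adjusted p under 0.05; 4-group test, under 0.001). Ratios, with 0.5 added to each count, were tested by exact permutation of libraries within strata (400 arrangements; SciPy 1.17.1). Depth was 15136861 to 46740702 counts per library, and intervals and the 3-count limit cover counting error only. The SE of an edgeR log2 fold change is its absolute value divided by the square root of the F statistic of its quasi-likelihood test. Coding sequences were aligned with mafft 7.526. The fit was tested on simulated data.

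The rule for named genes takes the 7 members tested in every comparison (Scd4 by its counts), up to 4 genes of a pathway list by smallest p, and genes among the 5 closest by Pearson's r for the most abundant Scd and Fads gene; a few results these rules select are not reported here. The members and lists were chosen with earlier results of these data known. Alternatives were DESeq2 1.42.0 (test and size factors), other filters, batch or replicate number as a term, batch 1 alone, the 6 libraries of a comparison alone and each library left out; library totals, totals without Scd1, and the fit without the library highest in muscle RNA of each group were added after seeing the data. Same-numbered libraries of the groups of 1 diet deviated together (correlation of deviations 0.219 to 0.456 on NCD and 0.155 to 0.386 on HFD in the 3 pairs). Across diets the correlations were mixed, from -0.214 to 0.365. The library highest in muscle RNA was replicate 2 in both NCD groups and replicate 3 in both HFD groups. Where the pairing within a diet comes from is not stated beyond the batch label. No replicates of a group agreed within sampling noise.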

Additional observations from a re-analysis of the deposited data

Results flagged for a closer look

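The effect of cold on Fads1 differed between the diets by an unadjusted test of the interaction: the cold effect on HFD minus that on NCD was 1.07 on the log2 scale (SE 0.26, unadjusted p = 0.00151, adjusted p = 0.494 in edgeR's quasi-likelihood test over 16737 genes). Fads1 was lower in the cold in 3 of 3 same-numbered library pairs on NCD and higher in 3 of 3 on HFD. These pairs hold the same values as the test, so they describe the flagged difference and are no separate support. The 2 HFD groups overlapped, with HFD at RT replicate 1 at 14.3 CPM and HFD in the cold replicate 2 at 13.5 CPM. The difference was 0.89 to 1.24 over 23 alternatives, and its adjusted p was 0.0496 in DESeq2 and up to 1.00 in the others.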

How the results depend on the processing

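Of the values of single members, 914 kept direction and side of the threshold, 48 lost and 32 gained the threshold and 14 changed sign under an alternative; the causes were not tested. Members called for cold on NCD (1) numbered 0 with no filter, 2 with batch as a term, 3 with the replicate block, 3 with the replicate block within diet, 2 in the 6 libraries alone, 2 with library totals, 3 with Scd1 out of totals and 3 in DESeq2. For cold on HFD (2) they were 1 with no filter, 0 in batch 1 alone, 0 in the 6 libraries, 1 without the libraries high in muscle RNA, 3 with library totals and 3 in DESeq2; for HFD at RT (3), 0 in batch 1 alone, 2 in the 6 libraries, 4 in DESeq2, 1 with library totals, 1 with Scd1 out of totals and 0 without the libraries high in muscle RNA; for HFD in the cold (1), 0 in batch 1 alone, 3 with library totals, 2 with Scd1 out of totals and 2 in DESeq2. The interaction had 1 member in DESeq2 (0 in edgeR), and the 4-group test (1) had 0 in batch 1 alone, 5 at an adjusted p under 0.05, 0 without the libraries high in muscle RNA and 3 in DESeq2. The replicate block changed no call of a member other than those given beside the results.

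Genes called in batch 1 alone were 429 for cold on NCD (all libraries 1070), 539 for cold on HFD (1605), 75 for HFD at RT (408), 84 for HFD in the cold (834), 0 for the interaction (1; 614 at an unadjusted p under 0.05 in edgeR) and 0 for the 4-group test (486; 4900 likewise). Without the libraries high in muscle RNA they were 333, 816, 121, 444, 4 and 34. DESeq2 gave 1451 for cold on NCD, 2053 for cold on HFD, 826 for HFD at RT and 1312 for HFD in the cold. It gave 61 for the interaction and 2512 for the 4-group test. The 6 libraries alone gave 1125 and 947 for cold on NCD and on HFD, and 410 and 198 for HFD at RT and in the cold. With no filter (37458 genes tested), 1019 were called for cold on NCD and 1558 for cold on HFD. Cold on NCD also had 1211 with batch as a term, 1275 with the replicate block, 1512 with that block within diet and 1035 with library totals. The interaction had 6 with no filter, 0 with batch as a term (1253 at an unadjusted p under 0.05), 2 with the replicate block within diet and 2 with Scd1 out of totals, and the 4-group test 1175 with no filter and 4125 at an adjusted p under 0.05. Library totals moved the median of all genes to 0.22 for HFD at RT and 0.31 for HFD in the cold, and gave 823 (679 higher, 144 lower; main 197 and 211) and 2456 calls (2224 and 232; main 363 and 471); for cold on HFD they gave 1373 and 556 (main 903 and 702). With Scd1 out of totals the median was 0.25 for HFD in the cold, with 1784 calls (1541 and 243), 275 and 159 for HFD at RT, 1219 and 592 for cold on HFD, and 432 and 606 for cold on NCD (main 647 and 423).

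With the TMM effective library size as denominator, the Scd1 share was 11.8% for NCD at RT and 1.82% for HFD in the cold, the Fads2 share 0.000979% for NCD in the cold and 0.000871% for HFD in the cold, and the summed share 11.9% for NCD at RT and 1.88% for HFD in the cold. Signs turned for Scd2 in the cold on HFD (-0.32 in batch 1 alone, -0.32 without the libraries high in muscle RNA, -0.0318 to 0.93 with 1 library left out), Fads3 for HFD at RT (0.00698 in batch 1 alone, -0.63 to 0.0281 with 1 library left out), Fads2 for HFD in the cold (0.13 with library totals, 0.0702 with Scd1 out of totals) and for cold on NCD (-0.29 to 0.0291 with 1 library left out), the Scd1 interaction (0.0112 with library totals, 0.0567 with Scd1 out of totals, -0.29 to 0.26 with 1 library left out) and the Scd2 interaction (-0.0175 without the libraries high in muscle RNA). None of these was called.

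With 1 library left out, genes called were 526 to 1138 for cold on NCD, 1038 to 1695 for cold on HFD, 132 to 412 for HFD at RT, 287 to 1070 for HFD in the cold, 0 to 25 for the interaction and 135 to 348 for the 4-group test. Members called were 0 to 2, 0 to 2, 1 to 4, 1 to 2, 0 and 0 to 1. The Scd1 to Scd2 ratio differed by -0.91 to -0.66 for cold and -0.79 to -0.49 for HFD, and the Fads1 to Fads2 ratio by -0.33 to -0.16 and 0.12 to 0.29. With 6 to 62 counts of Scd3 in 10 of 12 libraries and 0 to 26 of Scd4 in all 12, depth limits what can be said of both genes.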
